A study of Saccharomyces cerevisiae with 11 samples.

Results

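The comparison described here sets the 4 arrays of days 16 and 22 of an anaerobic retentostat against the 2 arrays of day 9, which makes 6 of the 11 arrays of the study. The arrays were assigned by their labelled sampling day. A retentostat is a continuous culture in which medium is fed in and spent medium leaves through a filter that holds back the cells. The biomass therefore builds up on a constant supply of glucose, and the growth rate of each cell drifts towards zero.

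All cultures were of Saccharomyces cerevisiae CEN.PK113-7D, a prototrophic haploid laboratory strain with the genotype MATa MAL2-8c SUC2, and all were anaerobic and glucose-limited. The late arrays came from 2 independent retentostats sampled on day 16, at a labelled growth rate of 0.0011 per hour, and again on day 22, at 0.00063 per hour. The day 9 arrays came from the same 2 retentostats at 0.0024 per hour. Values from the 2 day 2 arrays (0.0084 per hour) and from 3 chemostats that grew at 0.025 per hour are given as background. All groups are of 1 strain, and each retentostat group holds 2 arrays. The test counted the 4 late arrays as independent, with no term for the vessel, and took the spread from all 11 arrays. The p-values therefore rest on the spread between arrays of the same sampling day, which came from different vessels. They do not allow for repeated sampling of the same 2 retentostats, and they say nothing about other strains. The filter holds back every cell, and in bulk RNA fewer cells of a type and less RNA per cell cannot be told apart.

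Yeast without oxygen cannot make sterols or unsaturated fatty acids and must take them up, and it changes the mannoproteins of its wall to do so. Cells short of glucose keep gluconeogenic enzymes and stress proteins at a high level and hold back the synthesis of ribosomes. Ribosome synthesis itself needs small nucleolar RNAs, which guide the chemical modification and cleavage of ribosomal RNA. Box C/D RNAs guide methylation of ribose and box H/ACA RNAs guide the formation of pseudouridine.

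Changes are given as log2 of the late over the day 9 intensity minus the median of all genes, which was 0.12, and are called late changes. The test, its SE and its p-values belong to the difference before that median was subtracted, so rises were tested at a larger size than shown and falls at a smaller one. Intensities are the deposited linear values. A gene is said to have risen or fallen only where its Benjamini-Hochberg adjusted p from limma, over 5597 genes, was under 0.05.

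The arrays differed in their control ratios. The ratio of the 5′ to the 3′ control probe set of actin, which falls when the labelled RNA is short, was 0.736 and 0.472 on the day 16 arrays and 0.571 and 0.341 on the day 22 arrays, against 0.669 and 0.734 on the day 9 arrays. The same ratio for the TATA-binding protein ran from 0.476 to 0.568 on the late arrays and was 0.489 and 0.461 on the day 9 arrays. For SRB4 it ran from 0.104 to 0.279 on the late arrays and was 0.523 and 0.175 on day 9 replicates 1 and 2. The day 9 arrays also stood apart from each other, with a correlation of log2 values of 0.968, against 0.981 for the day 16 pair and 0.983 for the day 22 pair. Of the 4 alpha-specific genes, which a MATa strain should not use, MF(ALPHA)1 measured 1553 to 2049 on the late arrays and 666 and 1206 on the day 9 arrays, without passing the test. The a-specific gene MFA1 measured 7643 to 14473 on the late arrays and 16732 and 13450 on the day 9 arrays, so its groups overlapped. The 7 a-specific genes had a median late change of -0.07, with 3 above and 4 below the median of all genes. All 4 alpha-specific genes lay above it, with a median of 0.25. No member of either list passed in limma, with 1 and 2 at an unadjusted p under 0.05.

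At days 16 and 22, 67 genes rose and 10 fell, which is 1.38% of the genes tested, while 910 had an unadjusted p under 0.05. All 77 had late arrays that did not overlap the day 9 arrays, as did 1171 genes (20.9%) in all. Most of these calls needed the spread of the chemostat and day 2 arrays. With only the arrays of days 9, 16 and 22 in the fit, 4 genes passed in limma. With days 16 and 22 as one group over those 6 arrays 0 passed, with 676 at an unadjusted p under 0.05. For scale, 38% of genes had passed the same test at day 9 against the chemostat. Set against day 9 singly, 1 gene passed at day 16 (0.0179%), with 487 at an unadjusted p under 0.05, and 88 passed at day 22 (1.57%). Between day 22 and day 16 no gene passed in limma (0%), with 353 at an unadjusted p under 0.05.

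The genes that rose and those that fell lay at different levels. The median intensity over all arrays was 67.3 for the 67 that rose and 1597 for the 10 that fell, beside 163 for all genes. The median late change was 0.05 for the 1985 genes with a mean intensity under 100 and -0.32 for the 156 genes at 3000 or more. The share of rises among the calls was 87%, and 69.8% when the arrays were scaled to a common median. With that scaling, 30 of the 67 rises and all 10 falls still passed.

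**Figure D1:**
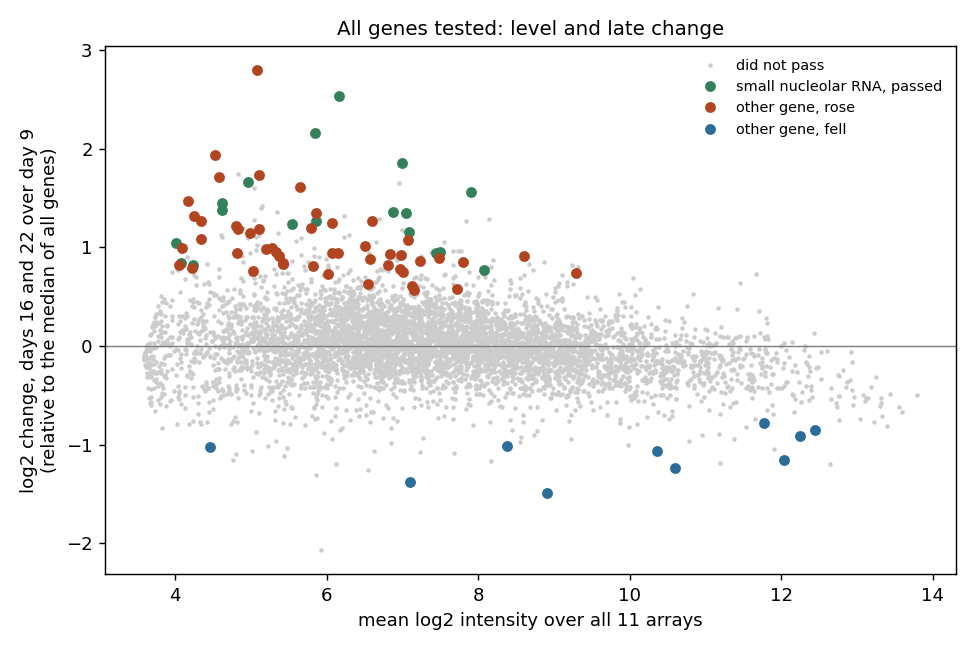
Late change of each tested gene (log2, days 16 and 22 over day 9, relative to the median of all genes) against its mean log2 intensity over all 11 arrays. Genes that rose lie mostly at low intensity, where 41 of 67 have a mean under 100, and 9 of the 10 genes that fell have a mean of 100 or more.

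The calls depended on which arrays were kept. With either of the 2 day 9 arrays left out, some of the 77 calls were lost. In those fits a lone day 9 array was assumed to vary like the other groups, so their counts do not show how many calls hold. Without the 2 arrays of lowest actin ratio, day 16 replicate 2 and day 22 replicate 2, 4 of the 77 passed: GAT4, SCEI, SNR35 and YKL183C-A. All chemostat and day 2 values of these 4 genes were under the floor of 12. The floor thus removed the spread of those groups from their tests, so passing here is no measure of robustness. With the actin ratio as a covariate 9 passed, and the part of RNA length in the other changes was not tested further. With each array left out in turn, 15 of the 77 passed every time, and they included GAT4, SCEI, FAA1, FBP1, MOR1, ZPS1 and 7 small nucleolar RNAs. Some of the 15, such as GAT4, SCEI, SNR3 and SNR37, were likewise under the floor on all chemostat and day 2 arrays.

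The 10 genes that fell included ERG11 and ERG25 of ergosterol synthesis, the fatty acid desaturase gene OLE1, the wall mannoprotein gene DAN1, the seripauperin PAU7, and FAT3, which acts in fatty acid uptake. Against 0.179% of all genes, 2 of 26 ergosterol genes, 2 of 21 genes of the anaerobic wall and sterol uptake, and 1 of 10 seripauperins fell, and none of these lists had a member that rose.

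ERG11 encodes lanosterol 14-alpha-demethylase, an enzyme that uses molecular oxygen. It measured 2152 and 1971 at day 16 and 1983 and 1645 at day 22, against 3078 and 3011 at day 9, with no overlap. The late change was -0.78 ± 0.14 (SE, limma adjusted p = 0.049). ERG25, the C-4 methyl sterol oxidase, measured 4068 and 3811 at day 16 and 3929 and 3446 at day 22, against 7180 and 5552 at day 9. All 4 late arrays were below both day 9 arrays, with a late change of -0.85 ± 0.15 (SE, limma adjusted p = 0.048).

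The 26 ergosterol genes had a median late change of -0.38, with 24 below the median of all genes. Relative to the chemostat mean, the list median was -1.53, -1.60, -1.74 and -1.77 on the late arrays, against -1.26 and -1.10 on the day 9 arrays. All 4 late arrays thus stood below both day 9 arrays. ERG3, a C-5 sterol desaturase, measured 2628 to 3592 on the late arrays and 4504 and 4215 on the day 9 arrays without passing (limma adjusted p = 0.12).

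OLE1 encodes the only fatty acid desaturase of this yeast and also needs oxygen. It measured 4220 and 4512 at day 16 and 2751 and 3144 at day 22, against 7509 and 5110 at day 9. The groups did not overlap, and the day 22 values were the lowest (late change -0.91 ± 0.17, SE, limma adjusted p = 0.049). FAT3 measured 98.6 and 138 at day 16 and 63.8 and 68.1 at day 22, against 261 and 170 at day 9. Its late change was -1.38 ± 0.21 (SE, limma adjusted p = 0.015), and it was one of the falls that passed with the actin ratio as a covariate.

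DAN1, a mannoprotein that yeast makes without oxygen, measured 3165 and 2650 at day 16 and 1985 and 1764 at day 22, against 5414 and 4227 at day 9. All late arrays were lower, by a late change of -1.16 ± 0.16 (SE, limma adjusted p = 0.012). PAU7 measured 784 and 977 at day 16 and 775 and 788 at day 22, against 2087 and 1544 at day 9, with a late change of -1.24 ± 0.23 (SE, limma adjusted p = 0.048). Seripauperins are near-identical copies, and the probe set may not separate them. All 10 that were measured lay below the median of all genes, with a median late change of -0.75. TIR4 and TIR1, further anaerobic mannoproteins, were lower on every late array without passing, at 2185 to 6059 for TIR4 in the late group against 10502 and 6647 at day 9 (limma adjusted p = 0.082).

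IZH4, a membrane protein with a part in zinc homeostasis, measured 228 and 330 at day 16 and 123 and 192 at day 22, against 655 and 432 at day 9. Its late change of -1.49 ± 0.24 was the largest of the 10 falls (SE, limma adjusted p = 0.022). INA1 measured 209 and 196 at day 16 and 132 and 128 at day 22, against 256 and 352 at day 9, and NUT2, a subunit of the Mediator complex, measured 13.7 to 17.8 on the late arrays against 28.0 and 30.9 at day 9. Both passed, with late changes of -1.01 and -1.02. Without day 9 replicate 1, INA1 alone among the 10 falls passed. Without the 2 arrays of lowest actin ratio, none of the 10 did.

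The time courses of these genes differed. OLE1 averaged 5332 in the chemostats, 6114 on day 2, 6310 on day 9, 4366 on day 16 and 2947 on day 22. The ERG25 averages were 6879 in the chemostats, 7599 on day 2, 6366 on day 9, 3939 on day 16 and 3687 on day 22. ERG11 differed from these in being low on day 9 already, with averages of 5787 in the chemostats, 6058 on day 2, 3045 on day 9, 2062 on day 16 and 1814 on day 22. Against the chemostat ERG11 fell at day 9 (-0.99, limma adjusted p = 0.001), where the values for ERG25 (-0.19, adjusted p = 0.57) and OLE1 (0.15, adjusted p = 0.35) did not pass. ERG11 was like most of its list in this. At day 9 against the chemostat, 24 of 26 ergosterol genes fell and 1 rose, with a list median of -1.21. Of 10 seripauperins 9 fell (median -1.96), beside 872 of all 5597 genes.

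Small nucleolar RNAs made up much of the rising group. Of the 55 that were measured, 18 rose and none fell, which is 32.7% against 1.2% of all genes, and the median late change of the 55 was 0.67. Among box H/ACA RNAs 10 of 17 rose, with a median late change of 0.95, and among box C/D RNAs 8 of 38, with a median of 0.50. Both lists were drawn up after the data were seen, and the difference between the 2 classes was not tested. These RNAs carry no long poly(A) tail when mature, and the 1-cycle labelling used here primes on poly(A). How far tail length moved with these values was not tested.

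SNR45, a box C/D RNA, had the largest late change of the class. It measured 295 and 354 at day 16 and 403 and 690 at day 22, against 70.7 and 60.7 at day 9. Every late array was far above both day 9 arrays, with a late change of 2.54 ± 0.33 (SE, limma adjusted p = 0.0046). SNR71 measured 233 and 270 at day 16 and 266 and 418 at day 22, against 49.1 and 72.3 at day 9 (late change 2.16 ± 0.32, SE). SNR128, also called U14 and required for cleavage of the precursor of 18S ribosomal RNA, measured 401 and 394 at day 16 and 566 and 802 at day 22, against 133 and 128 at day 9. The day 9 and day 16 pairs were close and the day 22 pair further apart, all late arrays being above day 9, and the late change was 1.86 ± 0.19 (SE, limma adjusted p = 0.0011).

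Among the box H/ACA RNAs, SNR3 measured 84.8 and 89.5 at day 16 and 127 and 121 at day 22, against 41.3 and 22.3 at day 9 (late change 1.66 ± 0.21, SE, limma adjusted p = 0.0030). SNR5 measured 811 and 614 at day 16 and 779 and 1028 at day 22, against 227 and 271 at day 9 (late change 1.56 ± 0.21, SE). SNR35 measured 43.5 and 60.5 at day 16 and 78.7 and 73.8 at day 22, against 24.2 and 20.2 at day 9. For each of these the lowest late array was above the highest day 9 array. SNR37 was under the floor of 12 on both day 9 arrays, so only a bound can be given: it was at least 2.25-fold higher on the late arrays, where it measured 18.0 to 40.0.

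The array medians of the classes set the groups apart as well. Relative to the chemostat mean, the median of the box H/ACA RNAs was 1.74, 2.16, 2.39 and 2.35 on the late arrays, against 1.09 and 0.79 on the day 9 arrays. For box C/D RNAs it was 1.32, 0.99, 1.02 and 1.26 on the late arrays, against 0.63 and 0.71 on the day 9 arrays. Day 16 replicate 1 lay above both day 9 arrays in both classes. Its actin ratio was 0.736, beside 0.734 on day 9 replicate 2. Its SRB4 ratio was 0.195, beside 0.523 and 0.175 on day 9 replicates 1 and 2. The part of RNA length in these medians was not tested. With the actin ratio as a covariate, 3 of the 18 that rose passed. Without the 2 arrays of lowest actin ratio the medians were 0.85 for box H/ACA and 0.58 for box C/D, but only SNR35 passed. All chemostat and day 2 values of SNR35 were under the floor of 12, which removed their spread from its test.

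**Figure D2:**
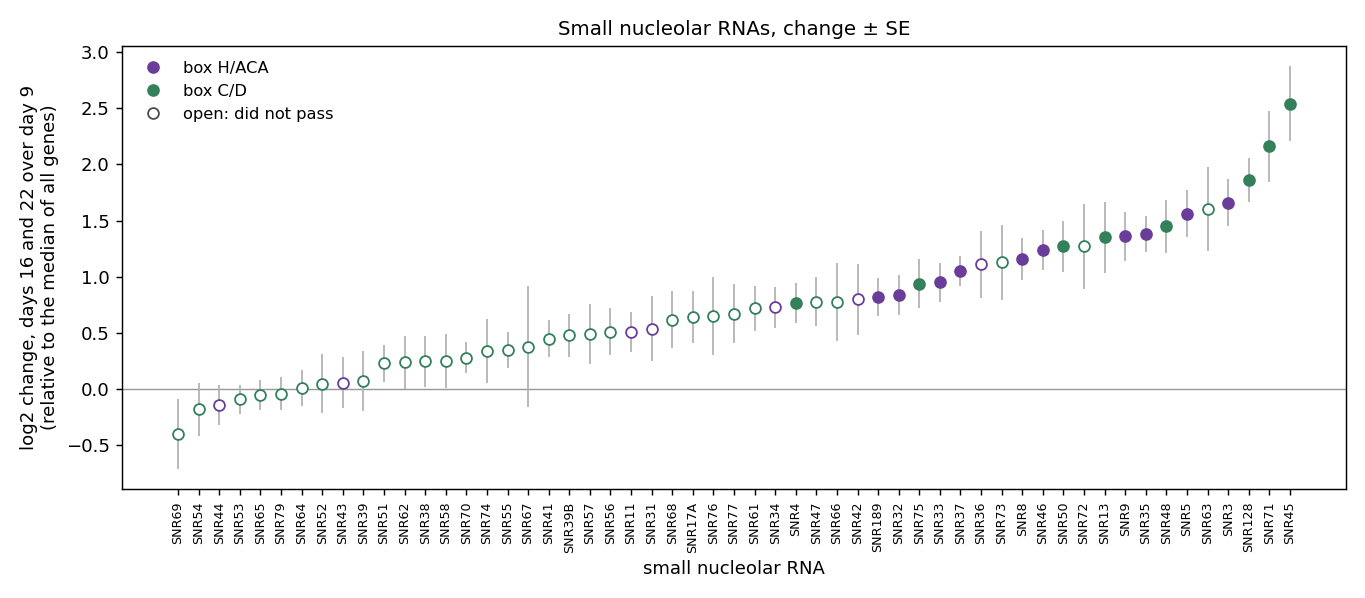
Late change (log2, relative to the median of all genes) with its SE for the measured small nucleolar RNAs in order of size, box H/ACA and box C/D marked by colour, filled where the gene passed. The 18 that passed lie between 0.77 (SNR4) and 2.54 (SNR45), and 6 of the 55, none of which passed, lie below the median of all genes.

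Genes around these RNAs gave a mixed picture. NRD1, which encodes the RNA-binding protein that ends transcription of small nucleolar RNAs and other short transcripts, measured 680 and 636 at day 16 and 834 and 616 at day 22, against 304 and 370 at day 9. It rose by 0.91 ± 0.16 (SE, limma adjusted p = 0.013) and was singled out after its values were seen. It was the only one of 27 measured genes of the Nrd1 complex, the TRAMP complex and the exosome that passed, and the median of that list was 0.12. Among proteins of these particles, 3 were looked at after their values were seen. CBF5, the pseudouridine synthase of box H/ACA particles, measured 309 to 409 on the late arrays and 159 and 447 on the day 9 arrays. GAR1 measured 456 to 502 on the late arrays and 247 and 572 at day 9, and NOP1, the methyltransferase of box C/D particles, 213 to 256 and 86 and 383. For these 3 genes the late arrays lay between the day 9 replicates.

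Of the 4 spliceosomal RNAs measured, none passed in limma, with 3 at an unadjusted p under 0.05, while their median late change was 1.30. The U5 RNA SNR7-L measured 401 to 650 on the late arrays and 79.0 and 263 on the day 9 arrays (late change 1.65 ± 0.47, SE, limma adjusted p = 0.10). The U4 RNA SNR14 measured 965 to 2488 on the late arrays and 293 and 1250 at day 9, so its groups overlapped. Among 88 transfer RNA genes 3 rose (3.41%, against 1.2% of all genes), with a median late change of 0.39. The probe set kept for RDN37-1, the precursor of the large ribosomal RNAs, went the other way: it measured 1264 and 911 at day 16 and 968 and 1113 at day 22, against 1987 and 2054 at day 9. Its late change was -1.06 ± 0.19 (SE, limma adjusted p = 0.046), and 6 of its 7 probe sets had this sign. With the mean of its probe sets the call was lost (late change -0.35, limma adjusted p = 0.61), and it passed under 5 of 26 alternatives.

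A few mitochondrial transcripts also rose. Of 14 protein-coding genes of the mitochondrial genome 3 passed, against 0.994% of all protein-coding genes, while the median of the 14 was -0.04 and 7 lay below the median of all genes. COB, the cytochrome b gene, measured 45.3 and 55.8 at day 16 and 89.1 and 98.0 at day 22, against 25.7 and 29.7 at day 9 (late change 1.19 ± 0.21, SE, limma adjusted p = 0.013). COX3, a subunit of cytochrome c oxidase, measured 51.6 and 39.8 at day 16 and 142 and 118 at day 22, against 25.8 and 36.7 at day 9 (late change 1.19 ± 0.26, SE). In both genes the day 22 arrays were above the day 16 arrays, but day 22 against day 16 did not pass (limma adjusted p = 0.64 for COB and 0.35 for COX3). The late call held under 13 of 25 alternatives for COB and 6 of 25 for COX3.

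SCEI, the homing endonuclease encoded in an intron of the large ribosomal RNA gene of mitochondria, was under the floor on both day 9 arrays and measured 26.8, 23.2, 63.8 and 43.2 on the late arrays. It was at least 3.02-fold higher there (limma adjusted p = 0.0019). The call of SCEI was lost with no floor (adjusted p = 0.20) and with a floor of 50, where its late change was 0.03. COX2 and ATP6 had late changes of 1.13 and 1.11 with no overlap of the groups and did not pass (limma adjusted p = 0.070 and 0.060).

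Genes for making ribosomes gave calls for single members but no stable shift of the list. Of 98 ribosome biogenesis genes 3 rose (3.06%, against 1.2% of all genes), and the median late change was 0.24 with 75 above the median of all genes. NOP8, needed for the large subunit, measured 51.7 and 64.1 at day 16 and 81.9 and 89.3 at day 22, against 19.1 and 23.3 at day 9. It averaged 53.9 in the chemostats and 58.5 on day 2, and fell at day 9 against the chemostat (-1.41, limma adjusted p = 0.0024). The late arrays against the chemostat did not pass (0.20, limma adjusted p = 0.15). Its late change was 1.61 ± 0.24 (SE, limma adjusted p = 0.0069), and it passed with either day 9 array left out. It did not pass without day 16 replicate 2 (limma adjusted p = 0.054), without day 22 replicate 2 (adjusted p = 0.057), with the actin covariate or with array weights, and its late change was 0.43 with a floor of 50. IMP4, part of the U3 particle that cleaves the 18S precursor, measured 111 to 138 on the late arrays against 78.4 and 57.9 at day 9. BRX1, needed for the large subunit, measured 115 to 126 on the late arrays against 53.9 and 80.1 at day 9. Their late changes were 0.78 and 0.75.

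The list as a whole overlapped between the groups. Its median relative to the chemostat was -0.65, -0.64, -0.44 and -0.36 on the late arrays, and -1.17 and -0.24 on day 9 replicates 1 and 2. The day 9 replicates thus enclosed all 4 late arrays. The median late change of the list was -0.26 without day 9 replicate 1 and 0.65 without day 9 replicate 2, so its direction was set by which day 9 array was used.

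BDP1, a subunit of the initiation factor TFIIIB of RNA polymerase III, measured 51.2 and 79.8 at day 16 and 103 and 119 at day 22, against 46.5 and 24.2 at day 9 (limma adjusted p = 0.035). It was the 1 member of 37 polymerase I and III genes that passed. ECM16, a helicase needed for 18S synthesis, and NOB1, the nuclease that makes the mature end of 18S, rose by 0.93 and 0.63 and were singled out after their values were seen. RNH201, the catalytic subunit of ribonuclease H2, was singled out in the same way and rose by 0.94, with 60.2 to 73.8 on the late arrays against 33.4 and 29.4 at day 9. It averaged 131 in the chemostats, so the late arrays stayed below that level (-1.18, limma adjusted p = 0.00026).

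Stress and glycolytic genes gave no calls. None of 40 Msn2/Msn4 targets, 27 heat shock proteins or 23 glycolytic genes passed in limma in either direction, with 6, 5 and 7 at an unadjusted p under 0.05, while 38, 24 and 20 of them lay below the median of all genes. Their median late changes were -0.36, -0.34 and -0.41. HSP12, a small membrane-protecting stress protein, measured 6959 to 7616 on the late arrays and 14618 and 8583 on the day 9 arrays (late change -0.75 ± 0.21, SE, limma adjusted p = 0.18). SSA3, a chaperone of the Hsp70 family, measured 1138 to 1886 on the late arrays and 3385 and 2218 at day 9 (limma adjusted p = 0.063). PGK1, phosphoglycerate kinase, measured 6562 to 8309 on the late arrays and 13648 and 9605 at day 9 (limma adjusted p = 0.13).

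In each of these genes day 9 replicate 1 was the highest array of the 6. The median of the Msn2/Msn4 targets relative to the chemostat was 0.75, 0.82, 0.60 and 0.57 on the late arrays, and 1.45 and 0.73 on day 9 replicates 1 and 2. Day 9 replicate 2 thus lay within the late range. Without day 9 replicate 1 the median late change of these targets was 0.02, and without day 9 replicate 2 it was -0.75. HSP12 and PGK1 lay above 3000 on all 6 arrays, as did ERG25 among the genes that fell. With quantile normalization the median of the glycolytic genes was 0.01 and that of the Msn2/Msn4 targets -0.15. The part of intensity level in these changes was not tested. The ergosterol and seripauperin lists kept their direction without either day 9 array, at -0.41 and -0.62 without replicate 1 and at -0.32 and -0.83 without replicate 2. With quantile normalization their medians were -0.34 and -0.72, but ERG11, ERG25, OLE1 and PAU7 no longer passed (limma adjusted p from 0.081 for PAU7 to 0.11 for OLE1).

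**Figure D3:**
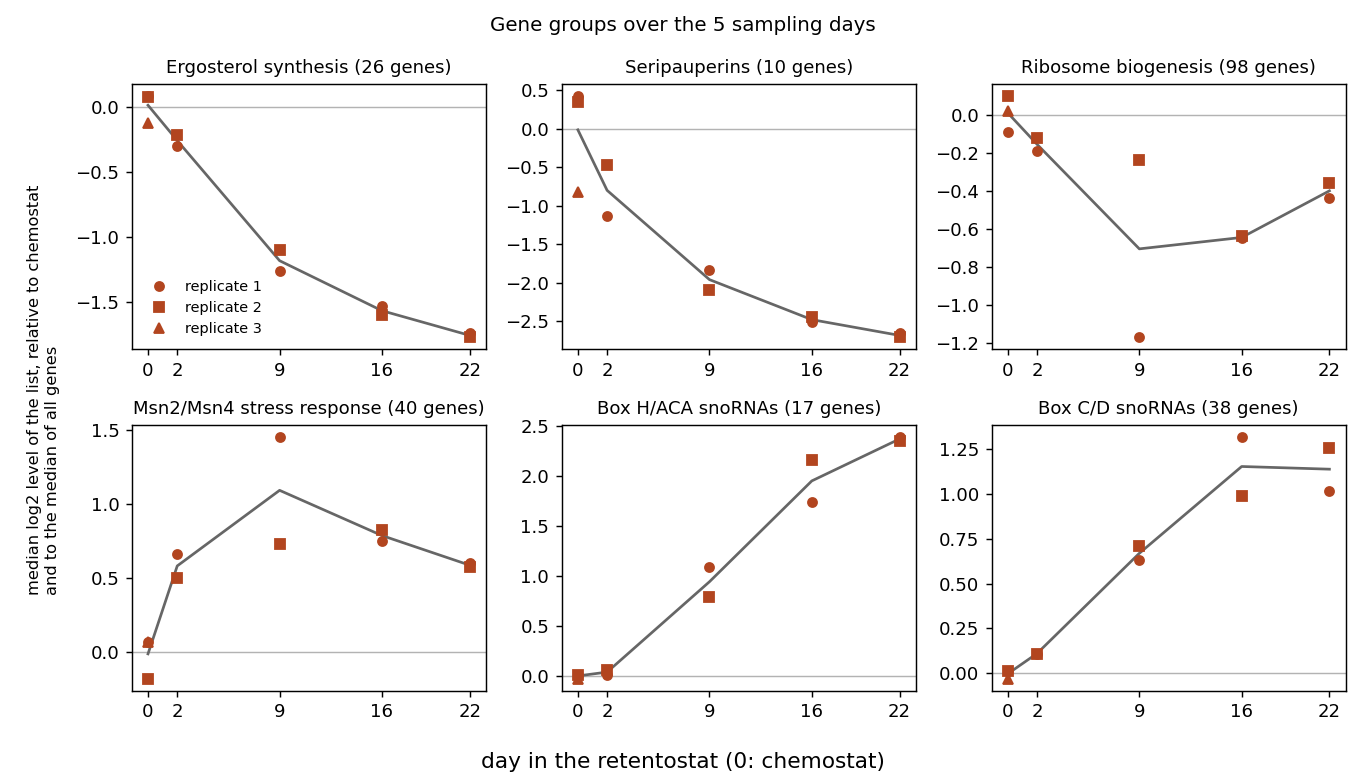
Median log2 level of 6 gene lists on each of the 11 arrays, relative to the chemostat mean and to the median of all genes, against the day in the retentostat (0 is the chemostat). Points are arrays and lines join the group means; the day 9 replicates are far apart for ribosome biogenesis (-1.17 and -0.24) and Msn2/Msn4 targets (1.45 and 0.73), and close for ergosterol synthesis (-1.26 and -1.10).

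In carbon metabolism, FBP1 and IDP2 rose among 20 gluconeogenic and glyoxylate cycle genes. FBP1, the fructose-1,6-bisphosphatase that is made when glucose is scarce, measured 245 and 289 at day 16 and 342 and 407 at day 22, against 161 and 129 at day 9 (late change 1.01 ± 0.16, SE, limma adjusted p = 0.0078). Its means were 20.9 in the chemostats, 42.3 at day 2 and 145 at day 9, so it was higher at each later sampling. IDP2, cytosolic isocitrate dehydrogenase, measured 36.2 to 42.6 on the late arrays against 21.1 and 21.9 at day 9, a late change of 0.76. The median of the 20 genes was -0.01.

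Transport and lipid activation genes rose singly. HXT1, the low-affinity hexose transporter normally made at high glucose, measured 37.1 and 67.3 at day 16 and 50.6 and 82.1 at day 22, against 10.1 and 21.2 at day 9 (late change 1.71 ± 0.31, SE, limma adjusted p = 0.018). One day 9 array was under the floor of 12, so the size of this change depends on the floor. FAA1, a long-chain acyl-CoA synthetase, measured 55.3 and 50.9 at day 16 and 101 and 87.8 at day 22, against 17.4 and 22.2 at day 9. Its late change of 1.73 ± 0.26 was the largest among the protein-coding genes with a standard name that rose (SE, limma adjusted p = 0.0069). HXT1 was the 1 gene of 13 hexose transporters that passed, and FAA1 the 1 of 43 peroxisomal and beta-oxidation genes. POT1, the peroxisomal thiolase of that list, measured 139 to 372 on the late arrays and 650 and 394 at day 9 without passing (limma adjusted p = 0.11).

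MEP3, an ammonium permease, measured 34.4 and 56.0 at day 16 and 75.0 and 74.4 at day 22, against 24.8 and 29.9 at day 9 (late change 0.95 ± 0.23, SE, limma adjusted p = 0.049). It was the 1 member that passed of 30 genes under nitrogen catabolite repression. ZPS1, a wall protein made under low zinc, measured 219 and 238 at day 16 and 337 and 371 at day 22, against 128 and 156 at day 9 (late change 0.89 ± 0.14, SE, limma adjusted p = 0.0069). With IZH4 it made 1 rise and 1 fall among 17 zinc genes. None of 30 iron genes passed in limma, with 4 at an unadjusted p under 0.05, and FTR1, the iron permease, measured 70.7 to 93.4 on the late arrays and 61.5 and 73.1 at day 9.

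GAT4, a GATA-type zinc finger protein, measured 27.4 and 24.9 at day 16 and 60.3 and 54.8 at day 22, against 13.4 and 15.2 at day 9. The 3 days did not overlap, and the late change was 1.32 ± 0.13 (SE, limma adjusted p = 0.0011), while day 22 against day 16 gave an adjusted p of 0.087. The call of GAT4 was lost with no floor (limma adjusted p = 0.11) and with a floor of 50, where its late change was 0.04. PRM3, which acts in nuclear fusion during mating, measured 65.5 to 93.7 on the late arrays against 27.2 and 37.6 at day 9 (late change 1.15 ± 0.20, SE, limma adjusted p = 0.015), and was the 1 of 33 pheromone response genes that passed. SMK1, a kinase of spore wall formation, measured 23.8 to 42.1 on the late arrays against 16.5 and 19.0 at day 9, a late change of 0.79. It was the 1 of 54 meiosis and sporulation genes that passed.

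YPT11, a Rab-type GTPase for the inheritance of mitochondria by the bud, measured 85.1 to 119 on the late arrays against 58.8 and 25.4 at day 9 (late change 1.25 ± 0.29, SE, limma adjusted p = 0.048). With the mean of its 2 probe sets it did not pass (limma adjusted p = 0.052), and it passed under 4 of 26 alternatives. MOR1 measured 57.8 to 98.8 on the late arrays against 26.4 and 30.2 at day 9, a late change of 1.22. EXG2, an exo-1,3-beta-glucanase, rose by 0.57 and was the 1 of 57 cell wall genes that passed. Among 424 genes with only a systematic name 7 rose (1.65%), which is near the 1.2% of all genes. The largest late change of all genes was that of YKL183C-A, which measured 93.6 and 190 at day 16 and 139 and 243 at day 22, against 22.6 and 19.0 at day 9 (2.80 ± 0.28, SE, limma adjusted p = 0.0011). It was also the 1 gene that passed at day 16 against day 9. All its chemostat and day 2 values were under the floor of 12. Its late call was lost with no floor, with a floor of 50, and with only the arrays of days 9, 16 and 22.

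**Figure D4:**
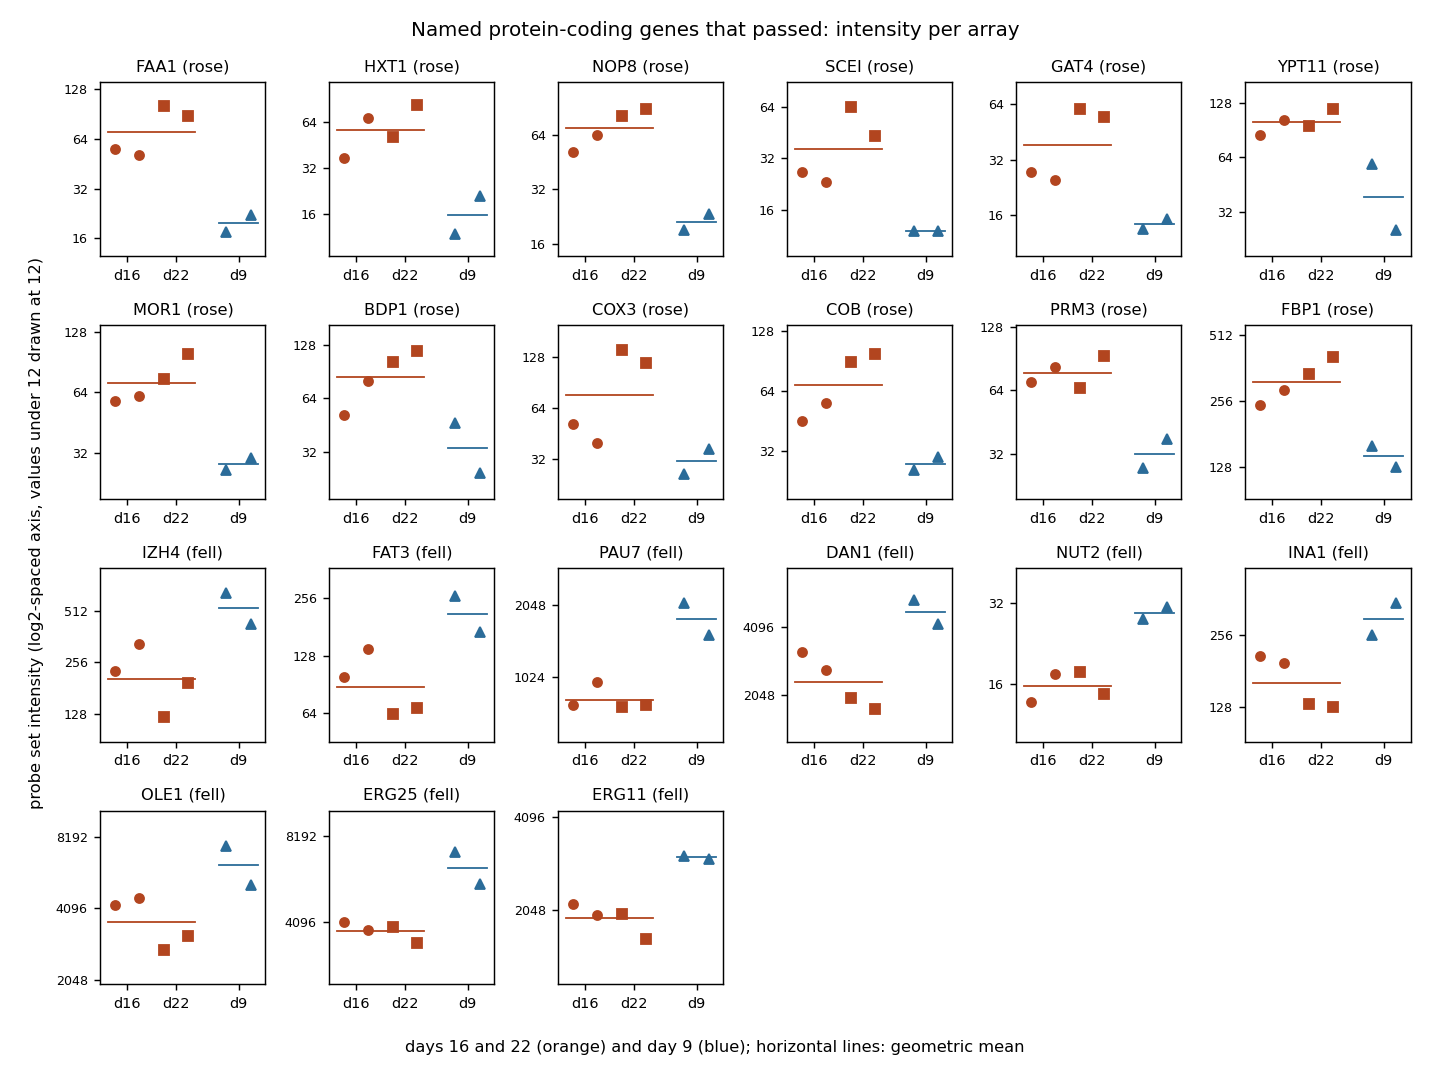
Intensity (log scale) on each of the 4 late and the 2 day 9 arrays for 21 named protein-coding genes that passed, with lines at the geometric means and values under 12 drawn at 12. The genes were chosen for having no overlap of late and day 9 arrays, as in GAT4 (24.9 to 60.3 against 13.4 and 15.2) and DAN1 (1764 to 3165 against 5414 and 4227).

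Lists without any call covered most of the remaining cell. In 26 of the 39 lists no member passed, among them cytosolic ribosomal proteins (80 genes, median late change -0.07), mitochondrial ribosomal proteins (66 genes, -0.10), respiratory chain and ATP synthase (35 genes, -0.14), autophagy (37 genes, -0.10), trehalose and glycogen (21 genes, -0.09), and cell cycle regulators (44 genes, 0.12). At a call rate of 1.38% a list of these sizes would hold few calls, so the absence of calls does not show that these genes stayed level. CLN1, a G1 cyclin, measured 229 to 336 on the late arrays and 144 and 172 at day 9 (late change 0.73 ± 0.19, SE, limma adjusted p = 0.063).

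**Figure D5:**
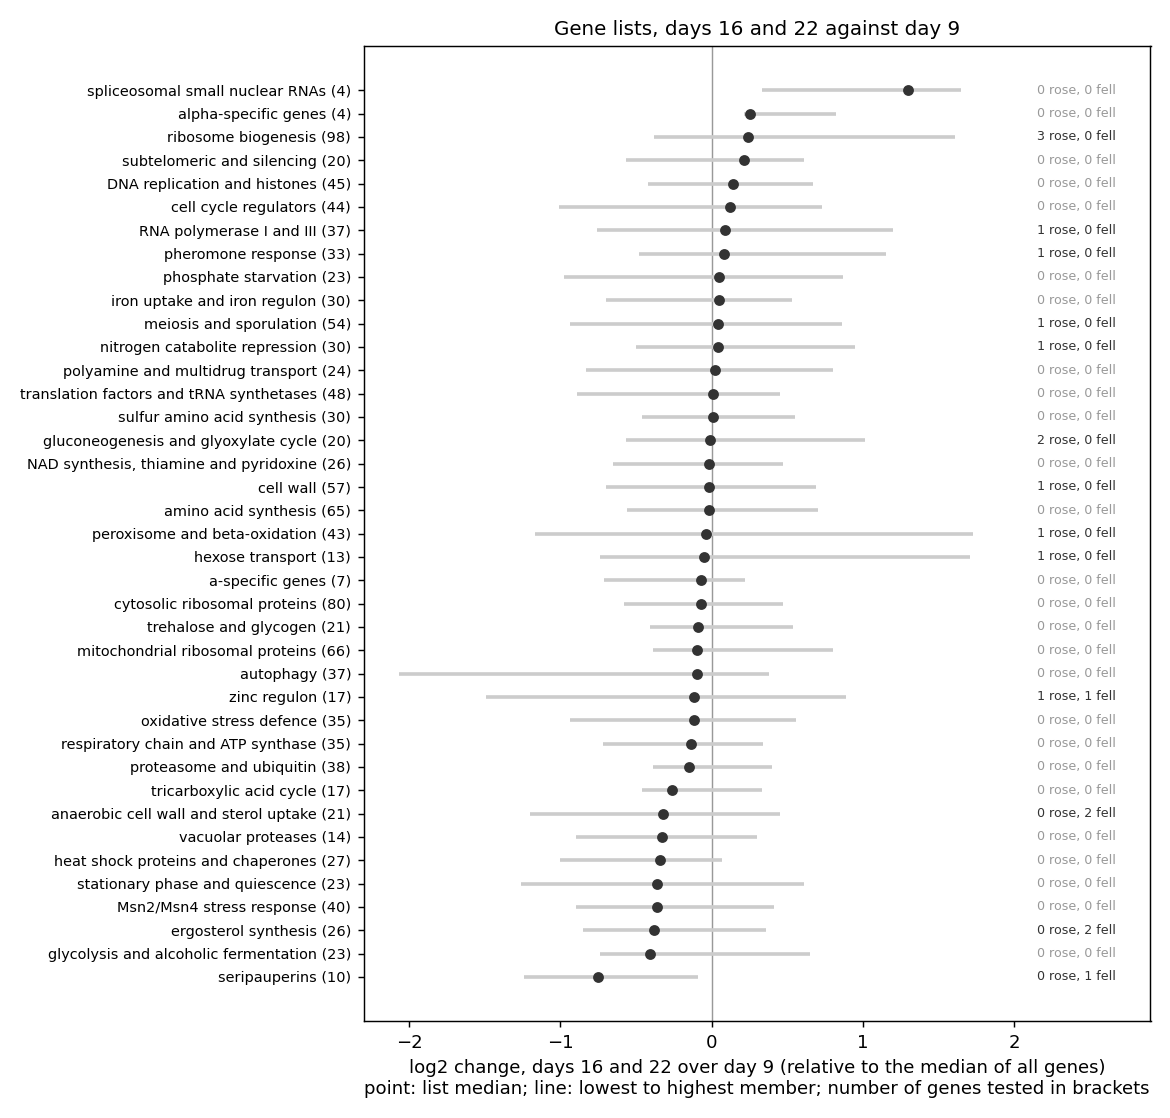
Median late change (point) and lowest to highest member (line) of each of the 39 lists, in log2 relative to the median of all genes, with the number of genes tested in brackets and the counts that rose and fell at the right. Seripauperins have the lowest median (-0.75) and the 4 spliceosomal RNAs the highest (1.30), and 26 lists have no call.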

How the data were processed

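RNA was measured on 11 Affymetrix YG-S98 arrays. The deposited values are linear array intensities on a common scale, made by the authors with GCOS 1.2 per the submitters' processing notes; its scaling settings: not given in the sources used here. Intensities under 12 were set to 12 and log2 was taken. Of 9335 probe sets, 6504 carry 1 gene by the platform annotation; for a gene with several, the one with the highest mean log2 was kept. Leaving out 59 genes that never exceeded 12 gave 5597 for testing with limma 3.58.1 in R 4.3.3, one mean for each of 5 groups over 11 arrays, two-sided, Benjamini-Hochberg adjusted within each of the comparisons. The late value is the mean of the day 16 and day 22 means minus the day 9 mean. The number of arrays limits the precision.

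Genes named were up to 12 protein-coding rises and 12 falls of largest size with a standard name and no overlap (remaining places filled by genes that did not pass, with a log2 change of at least 1), up to 4 non-coding RNAs each way, called members of each list, and a panel; others are said to be singled out. The comparison, lists and rule were chosen with earlier results of these data known, and the lists of small nucleolar RNAs, mitochondrial genes, transfer RNAs and the Nrd1 complex after the data were seen. Alternatives were other scalings, floors, filters, array subsets, blocks, array weights and an actin covariate. Promoter sequences were not used here.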

Additional observations from a re-analysis of the deposited data

Results flagged for a closer look

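In 5 of the genes named or passing, 1 of the 4 late arrays lay far from the other 3, by the gap to its neighbour relative to the range. PAU7 was 977 on day 16 replicate 2, the iron-regulated wall gene FIT2 was 220 on the same array, HYP2 was 1319 on day 16 replicate 1, COX2 was 70.9 on day 22 replicate 1, and SNR63 was 121 on day 22 replicate 2. Chance gives such a gap in about 1 in 20 groups, and 109 genes were examined, so this number is close to that share. Outside the genes tested, 155 probe sets without a gene or with several genes passed the same limma test for the late arrays against day 9, of 2255 above the floor (6.87%). Of these 139 rose and 16 fell, and their transcripts are not named here.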

How the results depend on the processing

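The count of genes that passed for the late arrays against day 9, 77 here, was 34 with quantile normalization, 43 with scaling to one median, 19 with no floor, 49 with a mean of at least 50, 44 with no filter, 4 with only the arrays of days 9, 16 and 22, 13 with only retentostat arrays, 135 with the replicate block, 9 with the actin ratio as a covariate, 4 without the 2 arrays of lowest actin ratio and 11 with array weights. It was 0 in limma with days 16 and 22 as one group over 6 arrays, with 676 at an unadjusted p under 0.05. With a floor of 50 it was 62, of which 26 were among the 77. With 1 array left out it ran from 18 (without day 16 replicate 2) to 458 (without day 9 replicate 2), and it was 21 and 30 without day 22 replicates 2 and 1. It was 39 without day 16 replicate 1, and 30, 32 and 65 without chemostats 1, 2 and 3. Of the 77, 0 passed under every one of the 26 alternatives. IDP2 and MEP3 each passed under 5 of 25. BDP1, BRX1 and ERG11 passed under 6, 5 and 7 of 26. For day 16 alone the count was 2 with scaling to one median or a mean of at least 50, 9 with a floor of 50, 16 with the replicate block, 8 with a random block, and 0 with no floor, no filter, array weights or fewer groups; with 1 array left out it ran from 0 to 100. For day 22 alone it was 40 with quantile normalization, 27 with no floor, 46 with a mean of at least 50, 17 with the 6 arrays, 27 with retentostat arrays, 227 with the replicate block, 144 with a random block, 7 with the actin covariate, 5 without the 2 arrays of lowest ratio and 30 with array weights, and with 1 array left out from 7 to 587. Day 22 against day 16 gave 13 calls with a floor of 50 and 3 with no filter. The count of small nucleolar RNAs, 18 here, was 12 with quantile normalization, 11 with no floor, 2 with 6 arrays, 8 with retentostat arrays, 0 with the late days as one group, 3 with the actin covariate, 1 without the 2 arrays of lowest ratio, 7 with array weights, and from 7 to 18 with 1 array left out. With a floor of 50 the late change was -0.06 for SNR37, YJL047C-A, SMK1, YBR298C-A, SNR189, YNCC0005W, SNR32, FLO8 and IDP2 and -0.04 for YNL108C, since these lie under that floor on nearly all arrays; GAT4 and SCEI, at 0.04 and 0.03, also lost their calls there. Without day 9 replicate 1 it was 0.23 for SPG1, -0.41 for CBF5, -0.33 for GAR1 and -0.76 for NOP1, and the medians were 0.02 for Msn2/Msn4 targets and -0.26 for ribosome biogenesis. Without day 9 replicate 2 these values were -0.64, 0.96, 0.76 and 1.27, and the medians -0.75 and 0.65. The glycolytic median was 0.01 with quantile normalization. The replicate block ended none of the 77 calls; the labels do not say that a number marks a vessel, and same-numbered arrays had deviations correlated at 0.07 (days 9 and 16), 0.12 (days 9 and 22) and 0.39 (days 16 and 22). The cause of these shifts was not tested beyond the arrays and settings named.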
